A study of Bos taurus with 8 samples.

Results

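The complement system was examined in liver RNA of Japanese Black fetal calves from dams on low nutrition (LN) or high nutrition (HN). It was represented by 33 genes, chosen by name, and their array probes were found through the RefSeq accession that each probe carries. Of these genes, 31 had matched probes (85 probes), C1R and C8G had 0, and 30 had a detected probe, out of 10860 genes detected in all. The 4 LN dams received 60% and the 4 HN dams 120% of their nutritional requirement during gestation, with no group at the full requirement. Livers were taken 8.5 months post-conception, and per the study's methods the fetuses used were the lightest of LN and the heaviest of HN. RNA was hybridised to 1-colour Agilent bovine arrays, 1 fetus per array in the sample titles (L5, L6, L8 and L9 in LN; L1, L2, L3 and L10 in HN), although the series description speaks of pooled RNA.

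Complement is a cascade of plasma proteins that marks and lyses microbes. It is started by C1q bound to antibody (classical pathway), by lectins bound to sugars (lectin pathway) or by slow spontaneous activation of C3 (alternative pathway). The routes meet at C3, and cleavage of C5 then lets C6, C7, C8 and C9 assemble into a membrane pore. Hepatocytes make most of the circulating components, whereas C1q comes chiefly from macrophages, which in the liver are Kupffer cells. Inhibitors in plasma and on cell membranes keep the cascade off host cells.

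Signals are given as log2 of the scanner intensity after quantile normalization between arrays, and every difference is LN minus HN on that scale. A value after ± is the SD over the 4 fetuses of a group. Detection of a probe required a signal well above background on 4 or more of the 8 arrays, and a gene was read from its brightest detected probe, so that levels of different genes were not compared. The LN arrays shared 1 slide and the HN arrays a different one, so slide and maternal diet cannot be told apart. Between 32635 and 34369 of 43803 spots per array were well above background, and 0 were saturated. Hepatocyte markers were detected (10 of 11, ALB among them; APOB had 0 matched probes), with a median difference of 0.013, from -0.23 for RBP4 to 0.34 for AFP. ALB, TTR, TF and AHSG read 17.81 to 18.47, near the top of the range, where quantile normalization leaves little room for differences. With 4 fetuses a group, the smallest p of an exact permutation test is 0.0286, and the number of arrays limits every difference.

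No complement gene passed an adjusted p of 0.05 by limma over 33439 detected probes (lowest adjusted p = 0.785 among them), and 0% of all genes passed it. The signal was lower in LN for 24 of the 30 genes and higher for 6, whereas 48.4% of all detected genes were lower in LN. The median difference was -0.13 over the complement genes and 0.0075 over all genes, and with scaling to the 75th percentile these were -0.083 and -0.023. When each fetus was left out in turn, the median of the complement genes ran from -0.22 without HN fetus L2 to -0.073 without HN fetus L1, and 18 of the 30 genes were lower without L1. At an unadjusted limma p of at most 0.05, 1 gene was lower in LN (background 2.75%) and 0 were higher (background 3.3%). A difference of at least 1.5-fold was found for 2 genes, C2 and C9, both lower in LN (background 2.5%), and for 0 that were higher (background 2.18%).

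**Figure D1:**
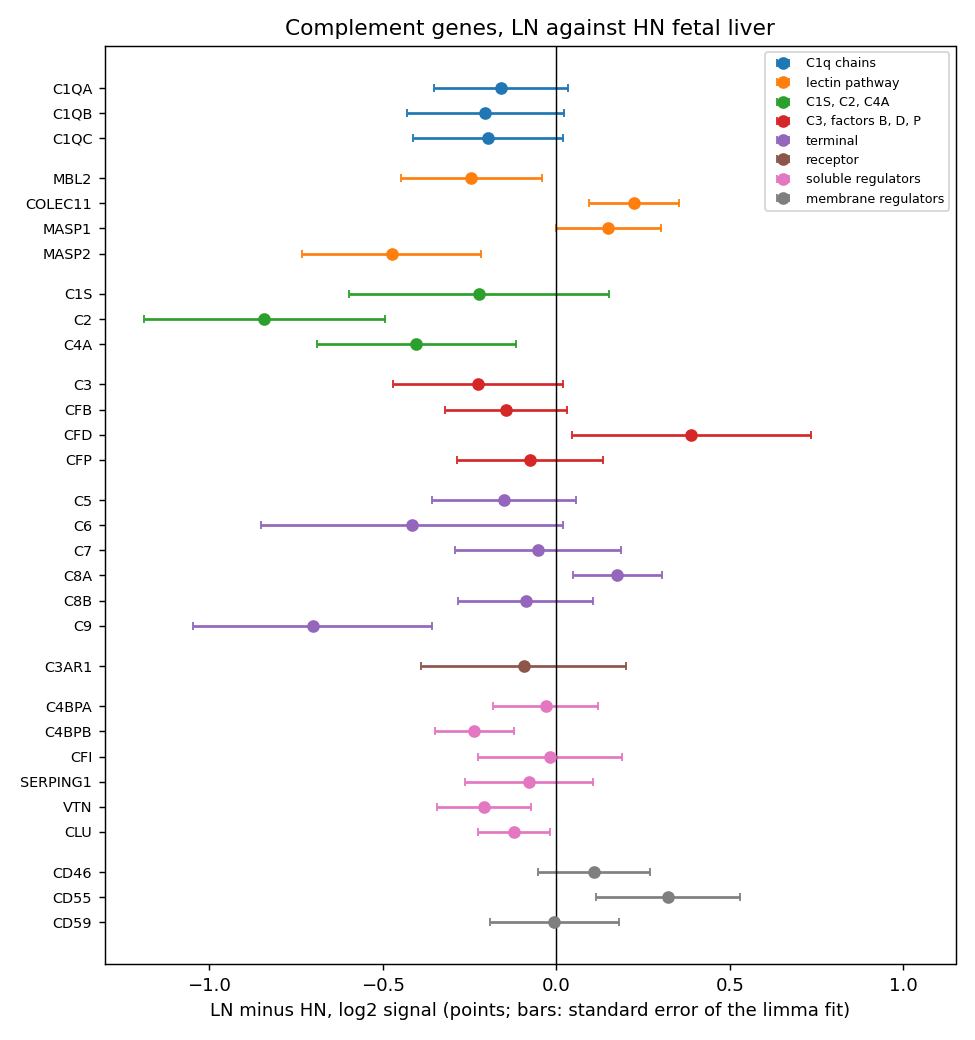
Difference in log2 signal between LN and HN for the 30 detected complement genes, grouped by role, with points for the difference and bars for the standard error of the limma fit (4 fetuses per group). C2 and C9 lie farthest to the left, at -0.84 and -0.70, and CFD farthest to the right, at 0.39.

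The liver-made components were mostly lower in LN, though none passed the adjusted test. Of 17 listed, 15 were detected, 12 were lower in LN and 3 were higher, and their median difference was -0.22. This median stayed between -0.30 and -0.13 with each fetus left out in turn. C2, the serine protease that joins C4 to form the classical and lectin C3 convertase, differed most. Its log2 signal was 9.34 in L5, 9.29 in L6, 10.16 in L8 and 8.94 in L9 of the LN group. In HN it was 10.66 in L1, 9.76 in L2, 9.73 in L3 and 10.95 in L10. LN fetus L8 lay above HN fetuses L2 and L3, so the groups overlapped. The difference was -0.84 (standard error 0.35), with C2 1.79-fold higher in HN. The exact permutation test gave p = 0.114, and limma p = 0.0392 with an adjusted p of 0.785. It ran from -1.08 without L8 to -0.62 without L10, and the unadjusted limma p was over 0.05 without L5, L6, L9, L1 or L10. The other detected probe of C2 differed by -0.85.

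C9, the protein that polymerises into the lytic pore, was 11.11 in L5, 11.60 in L6, 11.76 in L8 and 12.29 in L9 of LN. In HN it was 12.66 in L1, 11.60 in L2, 12.22 in L3 and 13.09 in L10. HN fetuses L1 and L10 stood above all LN fetuses, whereas L2 and L3 lay within the LN range. The difference was -0.70 (standard error 0.34), or 1.63-fold higher in HN. By exact permutation p was 0.171, and by limma 0.0731, with an adjusted p of 0.787. It was -0.97 without L2 and -0.47 without L10. The other detected probes of C9 differed by -0.60 and -0.54.

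**Figure D2:**
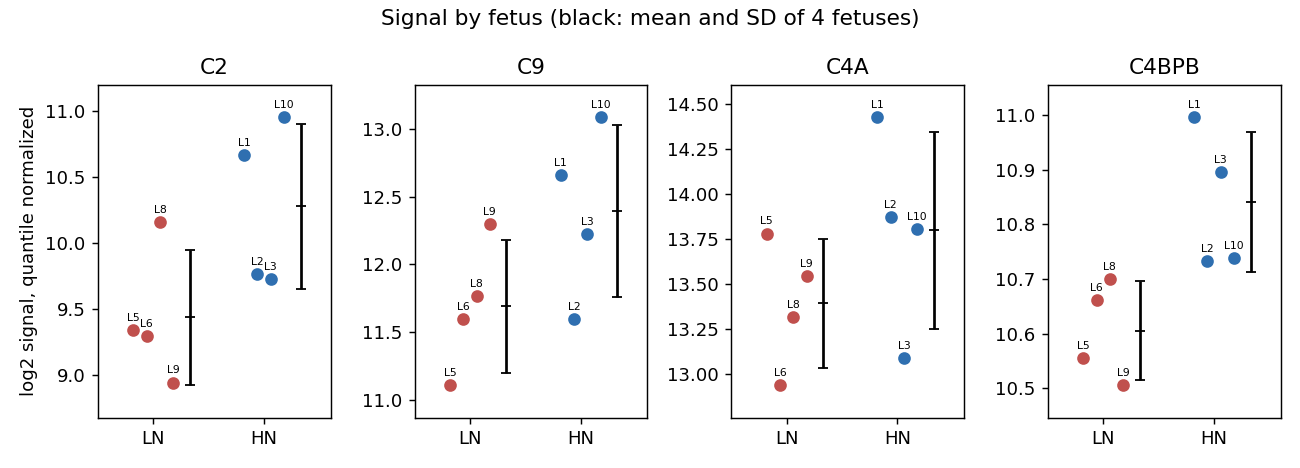
Quantile-normalized log2 signal of C2, C9, C4A and C4BPB in each fetus, with a point per fetus and, in black, the mean and SD of 4 fetuses. Only in the C4BPB panel do the LN and HN points not overlap, and HN fetuses L1 and L10 are the highest for C2 and C9.

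The remaining classical components were also lower on average in LN. C4A, the source of the C4b that anchors this convertase, was 13.39 ± 0.36 in LN and 13.80 ± 0.55 in HN, a difference of -0.40 (standard error 0.29) that ran from -0.64 without HN fetus L3 to -0.19 without HN fetus L1. Its other probes, 4 in number, differed by -0.70 to -0.51. C4 is duplicated in many mammals, so these probes may also read a close copy. C1S, the protease of the C1 complex, was 14.06 ± 0.32 in LN and 14.29 ± 0.81 in HN. Its difference of -0.22 was below its standard error of 0.37 and turned to 0.10 without HN fetus L10, whose signal was 15.26. C1R, its partner protease, had 0 matched probes.

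The genes of the lectin pathway did not share a direction. MASP2, the protease that cleaves C4 and C2, was 10.59 ± 0.52 in LN and 11.06 ± 0.26 in HN, a difference of -0.47 (standard error 0.26), with an adjusted p of 0.797 by limma. It ran from -0.67 without LN fetus L8 to -0.25 without LN fetus L6. Its 3 detected probes differed by -0.47, -0.44 and -0.45. The last of these was dim, at 3.72 in LN and 4.17 in HN, with an unadjusted limma p of 0.0274 (adjusted p of 0.765). It counts as much as the brighter probes in a mean. When these probes were averaged, every LN fetus lay below every HN fetus, with an unadjusted limma p of 0.00891 and an adjusted p of 0.725. MBL2, a mannose-binding lectin of plasma, was 14.38 ± 0.34 in LN and 14.63 ± 0.27 in HN and differed by -0.24 (standard error 0.20), from -0.39 without LN fetus L9 to -0.11 without HN fetus L3. COLEC11, a collectin, was 13.70 ± 0.11 in LN and 13.48 ± 0.19 in HN, 0.22 higher (standard error 0.13), and its other probe was 0.17 higher. MASP1, the protease that activates MASP2, was 14.43 ± 0.22 in LN and 14.28 ± 0.17 in HN, 0.15 higher (standard error 0.15), or 0.057 without LN fetus L5 and 0.24 without LN fetus L6.

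C3, at the centre of the cascade, was 16.39 ± 0.28 in LN and 16.61 ± 0.47 in HN, a difference of -0.23 below its standard error of 0.25. All 10 detected probes of C3 were lower in LN, by -0.40 to -0.16. Without HN fetus L3, whose C3 signal of 15.93 was the lowest of the 8, the difference was -0.45, with a limma p of 0.0386 and an adjusted p of 0.624, and without HN fetus L1 it was -0.11. CFB, factor B, which supplies the protease of the alternative C3 convertase, was 17.22 ± 0.16 in LN and 17.37 ± 0.32 in HN and differed by -0.14 (standard error 0.18), or -0.025 without HN fetus L1 and -0.079 with scaling to the 75th percentile. Its 4 probes differed by -0.24 to -0.12. In the order of genes of the ARS-UCD2.0 assembly, CFB is the direct neighbour of C2, with 0 protein-coding genes between them. The difference between their values was not tested.

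Among the terminal components, C6 was 12.26 ± 0.61 in LN and 12.67 ± 0.82 in HN. Its difference was -0.42 (standard error 0.43), and ran from -0.80 without HN fetus L3 (unadjusted limma p of 0.0456, adjusted p of 0.626) to -0.16 without LN fetus L9. C5, whose cleavage starts pore assembly, was 13.00 ± 0.24 in LN and 13.15 ± 0.38 in HN. It differed by -0.15 (standard error 0.21) by its brightest probe and by -0.49 to -0.20 by its other probes. C7, counted here with the liver-made components although much of it is made outside hepatocytes, was 11.15 ± 0.17 in LN and 11.20 ± 0.51 in HN. Its difference was -0.052 (standard error 0.24). C8B, the beta chain of C8, was 13.50 ± 0.34 in LN and 13.58 ± 0.24 in HN and differed by -0.088 (standard error 0.19). C8A, the alpha chain of C8, was 14.83 in L5, 14.92 in L6, 15.12 in L8 and 15.02 in L9 of LN. In HN it was 14.95 in L1, 14.56 in L2, 14.81 in L3 and 14.86 in L10. The groups overlapped, with L5 below L1 and L10, and the difference was 0.18 (standard error 0.13), while its other probe differed by -0.050. It was 0.097 without L2 and 0.063 as the mean over both probes. C8A and C8B are direct neighbours in the assembly, and C8G, the gamma chain, had 0 matched probes.

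The liver-made components were highest in HN fetuses L1 and L10. In 9 of the 15 detected components one of these fetuses had the highest signal, and in 8 both were among the 3 highest. The shares of all genes with these patterns were not computed. As the median deviation from each gene's mean over 8 fetuses, the level of these components was 0.35 in L1, 0.26 in L10, -0.093 in L2 and -0.20 in L3 of the HN group. In LN it was -0.072 in L5, -0.29 in L6, 0.12 in L8 and 0.0062 in L9. HN thus held the 2 highest levels, and its other 2 lay inside the LN range. The level of the regulators was likewise highest in L1 (0.24) and L10 (0.12). Neutrophil markers lay the other way: 9 of 10 were detected (CXCR2 was not), 8 of these were higher in LN with a median difference of 0.91, and 4 were at an unadjusted limma p of at most 0.05 (MPO, ELANE and CATHL4, without overlap, and CATHL2), where 3.3% of all genes were higher at that p and 2.59% without overlap. None of these markers passed adjustment (lowest adjusted p = 0.760 by limma). Their median level was -1.38 in L1 and -1.01 in L10, against -0.011 to 0.98 in the remaining fetuses. Not every marker was lowest there: LTF, which differed by -0.22, was highest of all fetuses in L1, at 11.38. ELANE was 7.17 in L1 and 7.22 in L10, against 7.11 in L2 and 7.13 in L3. Erythroid markers, 5 of 9 detected (EPB42, SLC4A1, KLF1 and HEMGN were not), were all higher in LN, with levels of -0.69 to 3.21 in LN and -1.53 to -0.15 in HN. LN fetus L5 carried much of this: without it their median difference was 0.42 in place of 1.21 and AHSP differed by -0.060, and without LN fetus L6 TFRC differed by -0.33. The part of these cell types in the complement values was not tested. The spread was larger in HN than in LN for 22 of the 30 complement genes (73.3%), against 46.7% of all detected genes.

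**Figure D3:**
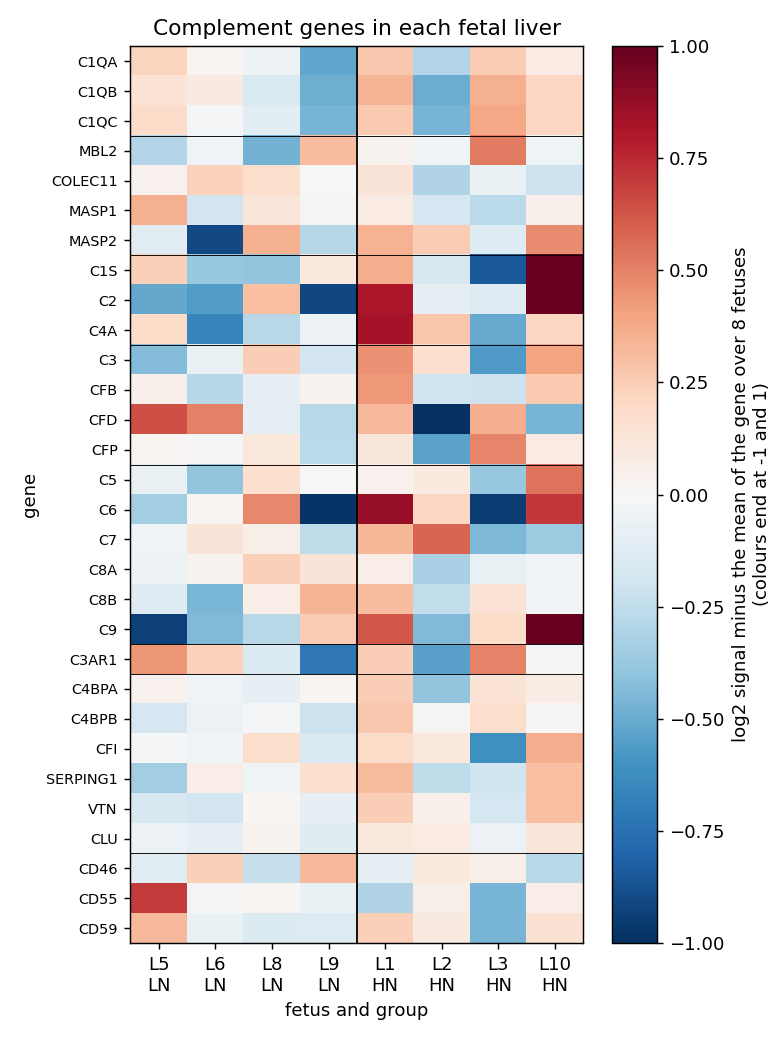
Log2 signal of each detected complement gene (rows, grouped by role) in each fetus (columns, LN left and HN right), as the deviation from the mean of the gene over 8 fetuses, with colours ending at -1 and 1. HN fetuses L1 and L10 are mostly red among the liver-made components, and the C1q rows are blue in LN fetus L9 and HN fetus L2.

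The C1q chains varied more between fetuses of a group than between the groups. C1q is built from the products of C1QA, C1QB and C1QC, which lie close together in the assembly, with at most 2 protein-coding genes between any pair. C1QA was 16.86 in L5, 16.67 in L6, 16.59 in L8 and 16.12 in L9 of LN, and 16.91 in L1, 16.35 in L2, 16.89 in L3 and 16.72 in L10 of HN. C1QB was 15.71 in L5, 15.66 in L6, 15.42 in L8 and 15.08 in L9 of LN, and 15.91 in L1, 15.07 in L2, 15.93 in L3 and 15.77 in L10 of HN. Both were lowest in LN fetus L9 and HN fetus L2, so that each group held a low fetus. C1QC was 15.93 in L5, 15.73 in L6, 15.63 in L8 and 15.27 in L9 of LN, and 15.998 in L1, 15.27 in L2, 16.13 in L3 and 15.95 in L10 of HN. It had the same low fetuses. The differences were -0.16 for C1QA, -0.20 for C1QB and -0.197 for C1QC, with standard errors of 0.19, 0.225 and 0.22 (limma adjusted p = 0.911, 0.897 and 0.896). Each difference was close to or below its standard error, and they were -0.012, -0.075 and -0.074 without L9 and -0.28, -0.40 and -0.38 without L2.

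Over the 8 fetuses the chains moved together in all 3 pairs. Pearson's r was 0.949 for C1QA and C1QB, 0.952 for C1QA and C1QC and 0.987 for C1QB and C1QC, with exact permutation p = 6.70e-04, 3.47e-04 and 4.96e-05. Adjusted over the 3 pairs, these exact permutation p were 6.70e-04, 5.21e-04 and 1.49e-04. Spearman's rho was 0.929, 0.946 and 0.994 in the same order (exact permutation p = 0.00223, 0.00129 and 9.92e-05, adjusted 0.00223, 0.00193 and 2.98e-04). Without L2 and L9, the fetuses farthest from the median, r was 0.872, 0.889 and 0.938. Each slide held 4 arrays, too few for a correlation within each slide. With the mean of each group, and so of each slide, taken off, a calculation added after seeing the data, r over the 8 fetuses was 0.944, 0.947 and 0.985.

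Macrophage markers varied in the same fetuses by their median, though not each of them: CD163 was 8.09 in L9, above 7.89 in L5 and 7.87 in L8. Of 14 listed, 12 were detected (CD68, CD163, CSF1R, CD5L, TIMD4 and VSIG4 among them; MARCO and MRC1 had 0 matched probes), with 7 lower and 5 higher in LN and a median difference of -0.052, which ran from -0.23 without L2 to 0.13 without L9. Their median level was 0.23 in L5, 0.17 in L6, -0.056 in L8 and -0.45 in L9 of LN. In HN it was 0.17 in L1, -0.46 in L2, 0.34 in L3 and 0.11 in L10. The median level of the C1q chains was 0.19, 0.030, -0.11 and -0.49 in the same LN fetuses and 0.27, -0.47, 0.36 and 0.21 in the HN fetuses. By median level both lists were lowest in L9 and L2. In whole tissue, fewer cells of a type and less RNA per cell cannot be told apart.

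**Figure D4:**
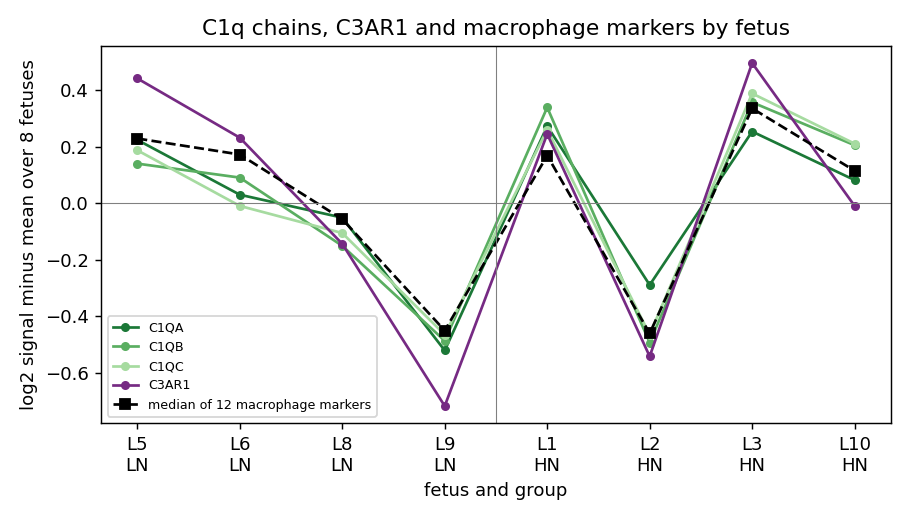
Log2 signal of C1QA, C1QB, C1QC and C3AR1 in each fetus, as the deviation from the mean over 8 fetuses, with the median deviation of 12 macrophage markers as black squares (LN left, HN right). All lines dip in LN fetus L9 and HN fetus L2 and peak, or nearly so, in HN fetus L3.

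The receptor of the C3a fragment, C3AR1, is carried by myeloid cells. It was 9.71 ± 0.51 in LN and 9.81 ± 0.44 in HN, a difference of -0.094 (standard error 0.29) that turned to 0.13 without L9. For C5AR1, the C5a receptor, 0 of 3 probes met the rule for detection, and its brightest probe was well above background on 3 of 8 arrays (L5 and L8 in LN, L3 in HN). CFP, properdin, which stabilises the alternative convertase and is released by leukocytes, was 11.87 ± 0.17 in LN and 11.95 ± 0.42 in HN and differed by -0.075 (standard error 0.21). CFD, factor D, a protease made largely by adipocytes and myeloid cells, was 14.68 ± 0.45 in LN and 14.29 ± 0.66 in HN, 0.39 higher (standard error 0.34), or 0.12 without HN fetus L2, which had 13.48, and 0.58 without HN fetus L3. Neither difference exceeded the SD within HN.

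Among plasma regulators, all 6 genes were lower on average in LN, with a median difference of -0.10, which was -0.19 without HN fetus L3 and -0.048 without HN fetus L1. C4BPA, CFI and SERPING1 changed sign in at least 1 such repeat. C4BPB, the beta chain of the C4b-binding protein that helps to inactivate C4b, was 10.56 in L5, 10.66 in L6, 10.70 in L8 and 10.51 in L9 of LN. In HN it was 10.996 in L1, 10.73 in L2, 10.90 in L3 and 10.74 in L10. Every LN fetus lay below every HN fetus, by a gap from L8 to L2 that was small beside the range of either group. The difference was -0.24 (standard error 0.11), 1.18-fold higher in HN, with the smallest exact permutation p that 4 against 4 allows, 0.0286 (limma p = 0.0706, adjusted p = 0.787). C4BPB was the only complement gene without overlap, 1 of 30, where 1.56% of all detected genes were lower without overlap. None of the 30 was higher without overlap (0, background 2.59%), and with scaling to the 75th percentile its groups overlapped. C4BPA, the alpha chain and direct neighbour of C4BPB, was 13.13 ± 0.059 in LN and 13.16 ± 0.28 in HN and differed by -0.031 (standard error 0.15).

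VTN, vitronectin, which blocks insertion of the pore, was 16.63 ± 0.095 in LN and 16.84 ± 0.22 in HN, a difference of -0.21 (standard error 0.14). Without HN fetus L3 it was -0.30, with a limma p of 0.0466, an adjusted p of 0.627 and no overlap, and without HN fetus L10 it was -0.14. CLU, clusterin, which also binds the forming pore, was 17.09 ± 0.070 in LN and 17.21 ± 0.083 in HN and differed by -0.12 (standard error 0.10). SERPING1, the inhibitor of C1r and C1s, was 15.80 ± 0.22 in LN and 15.88 ± 0.31 in HN and differed by -0.079 (standard error 0.18). CFI, factor I, which cleaves C3b and C4b, was 15.57 ± 0.13 in LN and 15.59 ± 0.43 in HN and differed by -0.017 (standard error 0.21).

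The membrane regulators were divided. CD46, the cofactor of factor I on cells, was 13.56 in L5, 13.91 in L6, 13.44 in L8 and 14.00 in L9 of LN, and 13.57 in L1, 13.77 in L2, 13.74 in L3 and 13.39 in L10 of HN. The groups overlapped, and the difference was 0.11 (standard error 0.16) by the brightest probe and -0.20 to -0.063 by the other 3. By the brightest probe it was 0.019 without L9 and 0.20 without L8. CD55, which speeds the decay of convertases, was 6.51 in L5, 5.79 in L6, 5.83 in L8 and 5.74 in L9 of LN. In HN it was 5.50 in L1, 5.86 in L2, 5.34 in L3 and 5.87 in L10. The LN mean was raised by L5, the fetus in which the median erythroid level was 3.21, and CD55 and its partner CD59 are also carried by red cells. The difference of CD55 was 0.32 (standard error 0.21), 0.14 without L5 and -0.063 by its other probe. CD59, which stops C9 polymerisation, was 10.82 ± 0.22 in LN and 10.83 ± 0.32 in HN and differed by -0.0060 (standard error 0.19). CD59 was 11.15 in L5, and 11.06 in L1 and 10.97 in L10, where the median erythroid levels were -1.53 and -0.88. The part of red cells in these values was not tested.

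Probes of the same gene mostly agreed in direction. Of 23 complement genes with more than 1 detected probe, 18 had all probes lower in LN, 2 (CFD and COLEC11) had all higher, and 3 (C8A, CD46 and CD55) had probes in both directions. Over probes, 74 of 82 were lower in LN (90.2%), against 49.7% of all detected probes, though probes of a gene share its RNA and fetuses. The dimmer probes lay further towards lower values in LN than the brightest in 19 of the 23 genes (82.6%), against 53.1% of all genes with more than 1 detected probe. For MBL2 the dimmer probes differed by -0.52 and -0.49 in place of -0.24, but with SDs within groups of 1.34 to 1.74, and for VTN the dimmer probe by -0.38 in place of -0.21.

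**Figure D5:**
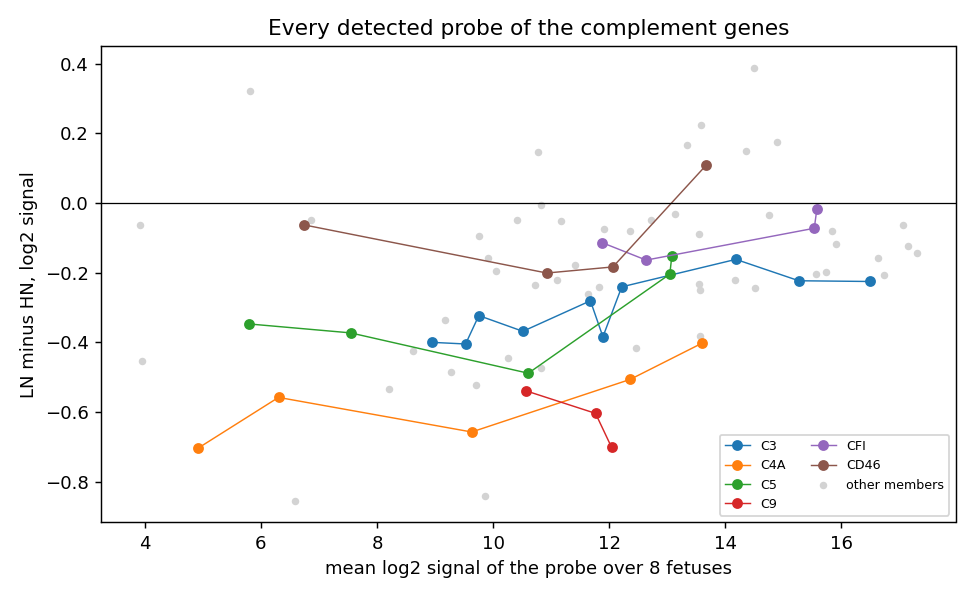
LN minus HN difference in log2 signal (vertical) against the mean log2 signal over 8 fetuses (horizontal) for each of the 82 detected probes of complement genes, with the probes of 6 genes joined by lines. The 10 probes of C3 all lie below 0, between -0.40 and -0.16, and those of CD46 lie on both sides.

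Complement genes outside the 33 and genes that act on complement synthesis were read in the same fit. Of 18 further complement genes, 12 were detected, 7 lower and 5 higher in LN, with a median difference of -0.058, which ran from -0.16 without L5 to 0.10 without L9. C1QBP, a mitochondrial protein first found as a binder of C1q, was higher in LN by 0.37 without overlap (standard error 0.11), with an exact permutation p of 0.0286 and an adjusted p of 0.760 by limma. CPN2, a subunit of the carboxypeptidase that inactivates anaphylatoxins, differed by -0.55 with a standard error of 0.22, an unadjusted limma p of 0.0327 and an adjusted p of 0.783. Of 11 genes for control of liver complement synthesis, 9 were detected (STAT3, CEBPB and HNF4A among them), 0 at an unadjusted limma p of 0.05, with a median difference of -0.017, which ran from -0.094 without L6 to 0.11 without L5.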

How the data were processed

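The authors deposited scanner output per array, in which intensity is background-subtracted and detrended by Agilent Feature Extraction 11.0.1.1, without normalization between arrays, and a table of log2 values for 31068 probes, quantile normalized in GeneSpring GX per the paper's methods. Quantile normalization of the scanner values of these probes gave that table to within 0.0423. Its columns share a median of 8.07, and the filter behind its probes is not named.

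Outlier spots and control spots were left out, and log2 intensities of 43637 probes were quantile normalized here. Probes were matched to genes through RefSeq accessions (26740 probes, 12603 genes, assembly ARS-UCD2.0); the array was designed on UMD 3.1, so no coordinates are given. The difference between LN and HN was tested 2-sided over 33439 detected probes by lmFit and eBayes of limma 3.58.1 (R 4.3.3), with Benjamini-Hochberg adjustment, checked on simulated data, and with exact permutation tests over 70 divisions of the arrays. Alternatives were other scaling, background correction (normexp, offset 50, on spot medians), the authors' table, other filters, trend and robust eBayes, slide position as a block, probe means, and each fetus left out. Values in every fetus were printed for genes with an unadjusted limma p of at most 0.05, no overlap, at least 1.5-fold, probes in both directions, or coding for C1q; further lists are named only at such a p or without overlap, or where a result turns on them. The genes, lists and tests were chosen with earlier results of these data known.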

Additional observations from a re-analysis of the deposited data

Results flagged for a closer look

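Within a group of 4 fetuses, a single fetus lay apart from the other 3 by Dixon's test in 3 of 60 groups of complement gene values, which is 5% of them, the share that chance gives. MBL2 was 15.03 in HN fetus L3, against 14.54 in the next highest HN fetus, and its difference was -0.11 without L3. CD55 was 6.51 in LN fetus L5, against 5.83 in the next highest LN fetus. CD59 was 11.15 in the same fetus L5, against 10.76 in the next highest LN fetus, while HN fetus L1 had 11.06. HBM, ALAS2, AHSP and GATA1, of the erythroid markers, were also highest in L5, but TFRC was 5.43 there and highest in L6, at 7.68.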

How the results depend on the processing

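Over 16 alternatives, 19 of 30 complement genes kept the sign of their difference, and no complement gene passed an adjusted p of 0.05 by limma. The number lower in LN at an unadjusted p of at most 0.05 was 2 with normexp (C2 and C4BPB; 3.21% of all genes) and 2 with trend and robust eBayes (the same genes; 2.99%). With slide position as a block it was C9 in place of C2 (2.18% of all genes), without a filter C4BPB (3.05%), and with probe means MASP2 (3.06%). The unadjusted limma p of C2 was then 0.0838, 0.0546 and 0.059. With each fetus left out it ran from 0 (without L5, L6, L1 or L10) to 5 without L3 (C2, C4A, C3, C6 and VTN), where 3.61% of all genes were lower at that p. Genes without overlap and lower in LN numbered 0 with 75th percentile scaling, 2 with probe means (MASP2 and C4BPB) and 1 to 4 with each fetus left out; the share of all genes was 2.6%, 1.45% and 2.32 to 3.65%, since 3 against 4 separate more easily. Those higher numbered 0 to 1 (COLEC11 without L1, 3.86% of all genes). The median of the regulators ran from -0.16 without L3 to 0.041 without L1. That of CFD, CFP and the receptors was -0.075, from -0.27 without L2 to 0.13 without L9, and 0.027 without a filter, when C5AR1 entered.

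Signs turned with 75th percentile scaling for CFI (0.0082) and CD59 (0.0050), with normexp for CD59 (0.00080), and with probe means for CD46 (-0.085). With each fetus left out, the range crossed 0 for C1S (-0.54 to 0.10), CFP (-0.27 to 0.076), C5 (-0.30 to 0.0044), C7 (-0.21 to 0.13), C8B (-0.22 to 0.049) and C3AR1 (-0.29 to 0.13). It also did for C4BPA (-0.17 to 0.045), CFI (-0.22 to 0.10), SERPING1 (-0.18 to 0.024) and CD59 (-0.16 to 0.073). The cause was not tested. No paired analysis was possible because LN and HN share no fetus number; the block on slide position matches places on the slides, not related fetuses.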

Other observations

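Acute phase proteins, which the liver makes beside complement, showed no common direction. Of 13 listed, 12 were detected (SERPINA3 had 0 matched probes), 7 lower and 5 higher in LN, with a median difference of -0.031 (0.095 without HN fetus L10) and none at an unadjusted limma p of 0.05. Among genes named after their values were seen, fibrinogen chains differed by -0.061 (FGA), -0.020 (FGB) and 0.11 (FGG). SAA3 was 1.19 higher, but -0.040 without HN fetus L3, where its signal was 3.38, and LBP, which carries lipopolysaccharide to CD14, differed by -0.73, with standard errors of 1.24 and 0.44 and overlapping groups.

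Of the marker lists not described above, 5 of 7 lymphocyte markers were detected (MS4A1 was not, and CD79B had 0 matched probes), and these 5 were lower in LN, with a median difference of -0.14 that ran from -0.27 without L9 to -0.057 without L8. All 8 endothelial markers were detected, 3 lower and 5 higher, with a median of 0.066 that was -0.081 without HN fetus L2. So were all 8 stellate and stromal markers, 6 lower and 2 higher, with a median of -0.23 that was 0.046 without HN fetus L2 and -0.53 without HN fetus L3.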
